A study of Mus musculus with 2 samples.

Results

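Mature *Ccr7* dendritic cells were picked out of 2 single-cell RNA libraries of mouse skin wounds by their own transcripts. A cell was a member if it held at least 2 UMIs (unique molecular identifiers, each counting 1 captured RNA molecule) of *Ccr7* and at least 1 of *Fscn1*, fewer than 3 of *Cd207*, and under 0.5% of its UMIs each in *Col1a1* with *Col3a1* and in *Krt5* with *Krt14*. Only cells with 500 or more genes, and no more than 6% of UMIs from mitochondrial genes, were kept. The rule found 148 members among 15514 such cells, 70 of 8326 in the library labelled PBS and 78 of 7188 in the library labelled DTX. The libraries shared 37 cell barcodes, none of them a member's.

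Both libraries were labelled as back skin wound tissue of C57BL/6 mice of genotype *Mrc1-DTR*, aged 7 to 9 weeks, 5 days after wounding. The tissue was cut out with a 10 mm punch, and live cells were sorted. The mice labelled PBS received phosphate-buffered saline and those labelled DTX received diphtheria toxin. In this transgenic line the *Mrc1* promoter, that of the gene for the macrophage mannose receptor CD206, drives the diphtheria toxin receptor. Cells using the promoter are thereby made sensitive to the toxin, and the study's text describes the depletion of CD206-positive cells as partial. The study's text describes the controls differently, as wild-type mice that also received the toxin, and the labels were followed here. Cells of several mice were pooled and there was 1 library per condition, so no difference between conditions could be tested.

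*Mrc1* itself was checked first. Its summed level over all kept cells was 65.5 CPM (counts scaled to 1e+06 UMIs) in the library labelled PBS and 266.6 in the library labelled DTX, and cells with at least 2 *Mrc1* UMIs made up 14.1% (exact 95% interval 13.3 to 14.8) and 37.3% (36.2 to 38.4). Among macrophages alone the shares were 60.5% (57.1 to 63.9) and 60.4% (58.5 to 62.3). A lower *Mrc1* level under the label DTX was thus not seen, so the gene gave no check of the labels. Kept cells with a UMI of the leukocyte gene *Ptprc* were 28.8% (27.9 to 29.8) and 72.3% (71.3 to 73.3). The study's text reports a larger proportion of immune cells in depleted than in control wounds, the direction that these shares take by label. Directions between the libraries are given below by label. In the members *Mrc1* gave 13 and 55 UMIs, or 23.0 and 61.4 CPM.

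Dendritic cells take up antigen in tissue and, on maturing, move through lymphatic vessels to the draining lymph node, where they present it to T cells. *Ccr7* encodes the chemokine receptor that guides this migration, and *Fscn1* encodes fascin, an actin-bundling protein of dendritic processes. During maturation, which runs through NF-kB signalling, dendritic cells lose receptors for uptake and gain costimulatory molecules, T cell-attracting chemokines and also restraining molecules such as PD-L1. In skin they can arise from type 1 and type 2 dendritic cells and from epidermal Langerhans cells, which carry *Cd207*.

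The promoter of *Ccl22* (RefSeq, GRCm38.p6, chr8:94745434-94745733, plus strand) is shown because *Ccl22*, which encodes a ligand of the T cell receptor CCR4, is a marker of the members that the rule did not use. A promoter of *Nfkb2* (chr19:46305445-46305744, plus strand), the gene for the p100 precursor of NF-kB, is shown for comparison. Each is written 5′ to 3′ from 250 bases before to 50 after a transcription start. Capitals mark matches, on either strand, to 2 forms of the NF-kB motif. In *Ccl22* they mark the loose form, GGG and CC with any 5 bases between them. In *Nfkb2* they mark the strict form, GGGA and TTCC with any 2 bases between them, every match to which also matches the loose form. Of the 3 *Nfkb2* promoters the one shown held the most strict matches, 2 against 0 and 1.
Ccl22: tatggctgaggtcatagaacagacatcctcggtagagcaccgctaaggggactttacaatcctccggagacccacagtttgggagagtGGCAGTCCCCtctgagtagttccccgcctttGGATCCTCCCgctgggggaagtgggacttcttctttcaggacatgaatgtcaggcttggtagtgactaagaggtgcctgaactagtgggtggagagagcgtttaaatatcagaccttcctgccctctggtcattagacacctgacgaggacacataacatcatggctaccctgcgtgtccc
Nfkb2: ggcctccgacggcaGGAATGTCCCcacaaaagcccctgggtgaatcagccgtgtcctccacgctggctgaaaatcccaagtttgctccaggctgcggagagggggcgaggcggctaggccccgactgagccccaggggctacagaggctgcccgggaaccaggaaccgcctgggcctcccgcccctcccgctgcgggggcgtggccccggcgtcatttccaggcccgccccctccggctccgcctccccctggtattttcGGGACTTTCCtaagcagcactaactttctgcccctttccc

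The strict form was found in 1.47% and the loose form in 50.8% of 32851 promoters of 300 bases. Of the 15 genes that stood furthest above type 2 dendritic cells (named further on), 11 had a promoter in the table, of which 0 held the strict and 6 the loose form, so the share with the loose form was close to that of all promoters.

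The members were chosen by their measured UMIs of *Ccr7*, *Fscn1*, *Cd207*, *Col1a1*, *Col3a1*, *Krt5* and *Krt14*, so the values of these genes describe the choice. *Ccr7* (chr11:99144196-99155077, minus strand) had 2267 CPM in the library labelled PBS and 2583 in the library labelled DTX, and *Fscn1* (chr5:142960343-142973185, plus strand) had 1644 and 1802. The rule's edge was sharp for *Ccr7*: 4 members in each library held exactly 2 *Ccr7* UMIs, and 2 cells and 1 cell with *Fscn1* missed it with a single *Ccr7* UMI. It was broad for *Fscn1*. Outside it lay 132 and 186 cells with 2 or more *Ccr7* UMIs and no *Fscn1* UMI, more than the members themselves. Their *Ccl22* level was 266 and 216 CPM against 1982 and 2696 in the members, while *Mgl2* and *Cd209a*, markers of type 2 dendritic cells, stood at 759 and 366 CPM in the library labelled PBS and at 383 and 311 in the library labelled DTX. The members held 76.2 and 26.6 CPM of the same genes in the former and 85.9 and 30.1 in the latter. *Ccl17* stood at 615 and 288 CPM in the cells without *Fscn1*, against 289 and 744 in the members. It was thus higher outside the rule in the library labelled PBS. *Lyz2* stood at 2022 and 1979 CPM outside the rule, against 193 and 593 in the members. The type 2 class used below held no *Ccr7* UMI and so left these cells out.

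Markers outside the rule were checked next. *Il4i1*, which encodes a secreted amino acid oxidase that restrains T cells, had 680 and 1144 CPM in the members and stood 3.43 and 4.95 log2 units above type 2 dendritic cells. *Tbc1d4*, a Rab GTPase-activating protein, had 1449 and 1589 CPM, near the 1820 and 1791 of Langerhans cells and above the 55.0 and 103.2 of type 2 dendritic cells. The dendritic genes *Flt3* and *Zbtb46* were present, with 138 and 157 CPM of *Flt3*. Of single defining genes of other cells, *Xcr1* of type 1 dendritic cells gave 1 and 0 UMIs, *Cd3e* of T cells 0 and 3, and *Cd79a* of B cells 0 in both. RNA of macrophage and neutrophil markers was present (527 and 1609, and 328 and 194 UMIs over the whole lists) and is described with the comparison of the libraries. The T and NK markers also gave 193 and 522 UMIs over their list, of which *Il7r* made up 152 and 360. Single members held up to 11 and 82 UMIs of that list. *Cd207* gave 2 and 0 UMIs, which the rule fixed. After each cell was thinned to 2000 UMIs, a *Ccl22* UMI was found in 59.7% of 67 and 66.7% of 78 members, and in 0.752% and 0.267% of macrophages at the same depth.

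**Figure D1:**
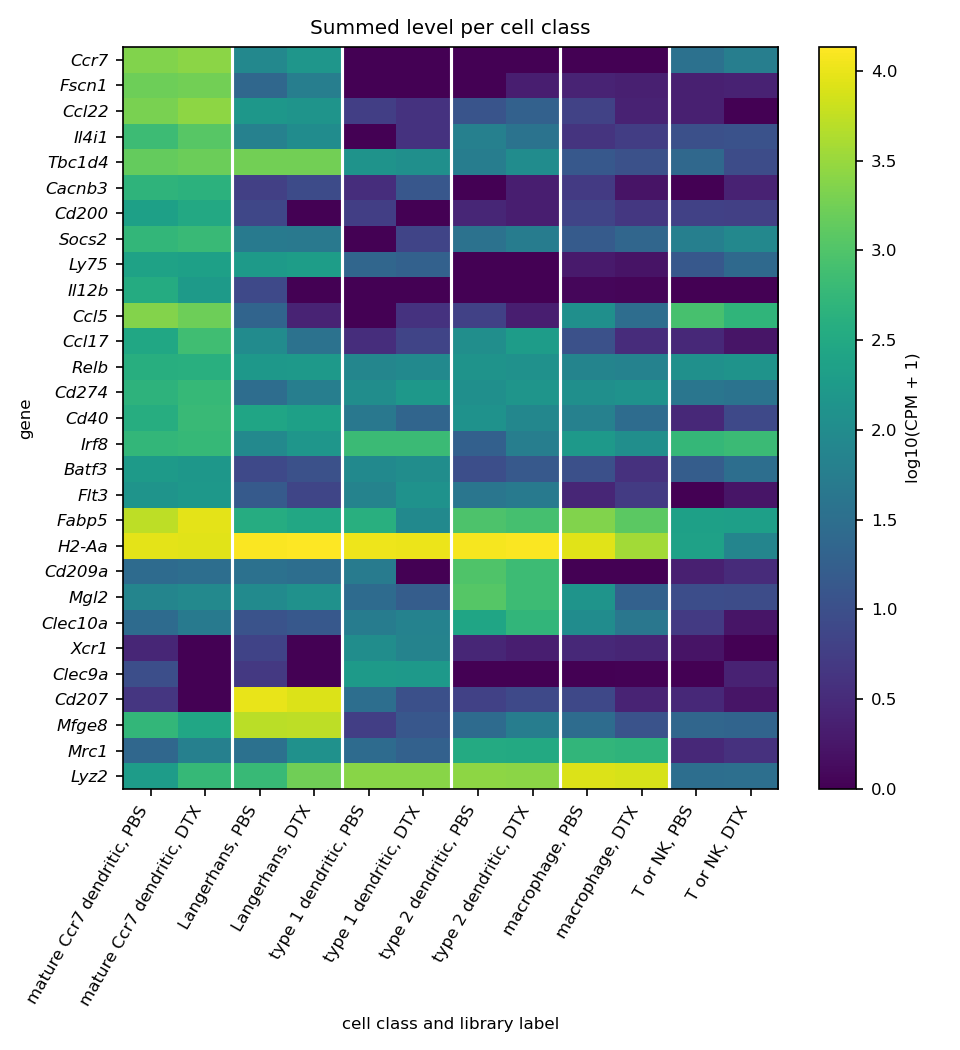
Summed level of each gene (rows) on a log10(CPM + 1) colour scale in 6 cell classes, each in the libraries labelled PBS and DTX (columns). The maturation genes from *Ccr7* to *Ly75* are bright in the first 2 columns, *Tbc1d4* and *Ly75* also in Langerhans cells, while *Cd209a*, *Mgl2* and *Clec10a* are bright in type 2 dendritic cells.

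The depth differed. Members held 1377 to 22195 UMIs (median 7653.5) in the library labelled PBS and 2204 to 25620 (median 10204) in the library labelled DTX, with 564563 and 896188 UMIs in all. A level of 3 UMIs was 5.31 and 3.35 CPM. All intervals are exact 95% intervals that cover counting error only.

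Members were 0.841% (0.656 to 1.06) of kept cells in the library labelled PBS and 1.09% (0.859 to 1.35) in the library labelled DTX. Of kept cells with a *Ptprc* UMI they made up 1.87% (1.37 to 2.50) and 0.904% (0.665 to 1.20), counting the 45 and 47 members that had one. Among all members and type 1 and type 2 dendritic cells together they were 41.7% (34.1 to 49.5) of 168 and 44.1% (36.6 to 51.7) of 177. The share thus ran in opposite directions for the 2 larger denominators, and within dendritic cells the intervals largely overlapped. Macrophages were 9.82% of kept cells in the library labelled PBS and 36.6% in the library labelled DTX, which enters both larger denominators. Langerhans cells were 1.63% and 0.710%. A further 17 and 14 barcodes met the rest of the rule but failed the cell filter. Under an upper limit of 2000 genes per cell 36 members were left in the library labelled PBS and 6 in the library labelled DTX, since 34 of 70 and 72 of 78 members lay above it, and the share of kept cells then turned to 1.43% and 0.227%.

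Against type 2 dendritic cells (2 or more *Cd209a* UMIs, none of *Ccr7* and fewer than 3 of C1q genes; 67 cells labelled PBS and 74 labelled DTX), the members differed in the same direction in both libraries for a part of the genes. Of 1498 genes with at least 100 UMIs, 158 (10.5%) were at least 2-fold higher in the members in both libraries and 167 (11.1%) at least 2-fold lower. These counts are descriptions, as the classes were cut on *Ccr7*. The median log2 difference over all genes was -0.14 in the library labelled PBS and -0.10 in the library labelled DTX. Log2 differences are on the log2(CPM + 1) scale, which understates those of low genes, while ratios and lower bounds given as folds are of CPM itself.

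The 15 genes furthest above type 2 cells included 3 that encode secreted factors. *Ccl5*, a chemokine for T cells and monocytes, counted 1331 and 1473 UMIs in the members (2358 and 1644 CPM) and 3 and 1 UMIs in type 2 dendritic cells, a ratio of 443 (151 to 2151) in the library labelled PBS and of 1369 (245 to 54115) in the library labelled DTX. *Il12b* (chr11:44400063-44414033, plus strand), which encodes the p40 subunit of interleukin-12 and interleukin-23, counted 200 and 162 UMIs against 0 in type 2 cells of both libraries, and was thus at least 66.6-fold and 50.2-fold higher, with 3 counts set for 0. *Ccl22* was 7.41 and 7.15 log2 units higher. *Ccl17*, the other CCR4 ligand, lies near it (*Ccl22* chr8:94745590-94751699, *Ccl17* chr8:94810453-94812036, both plus strand), and was 1.38 and 1.95 units higher. The second value rested on 1 member with 441 of 667 UMIs, and without the member with the most *Ccl17* in each library the differences were 1.04 and 0.43. The neutrophil chemokine *Cxcl2* was lower by contrast, at 484 and 404 CPM against 1590 and 1594. Of the 6 chemokines measured, 3 were higher and 1 was lower, or 2 and 2 without the top member of each gene, when *Ccl17* left the former and *Ccl9* (-2.47 and -1.45) joined the latter. Of 3 cytokines *Il12b* alone was higher, while *Il1b* stood at the edge of the threshold, at -0.98 and -0.93 with all members and at -1.08 and -1.01 without its top members.

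Others of the 15 encode membrane, adhesion or cytoskeletal proteins. *Cd200*, which encodes a ligand that restrains myeloid cells, had 220 and 314 CPM against 1.77 and 1.20. *Cacnb3*, a calcium channel subunit, had 478 and 447 CPM with 0 and 1 type 2 UMIs. *Itga4*, the alpha 4 integrin, was 4.67 and 4.08 log2 units higher, and *Actn1*, an actin crosslinker, was 4.02 and 4.27 units higher. The remaining leaders were *Ly75*, the endocytic receptor DEC-205, with *Nudt17*, *Eno3*, *Serpinb6b*, *Tbc1d8*, *Anxa3*, *Gnb4* and *Zmynd15*. Of 23 further genes known from dendritic cell maturation, 21 were higher and none was lower. *Cd63*, a tetraspanin, had 1833 and 2195 CPM against 112 and 138, and *Fabp5*, a fatty acid binding protein, had 5286 and 9289 against 962 and 818.

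Uptake and sensing receptors were the reverse, with 7 of 9 lower and only *Ly75* higher. *Mrc1* was lower by 3.81 and 2.36 log2 units in the members, *Clec10a* and *Mgl2*, lectins of type 2 cells, stood at 26.6 and 76.2 CPM against 268 and 1116 in the library labelled PBS, and *Cd14*, *Clec4n*, *Fcgr2b* and *Csf2ra* completed the list. The lowest genes also included the urokinase receptor *Plaur* (12.4 and 48.0 CPM against 309 and 491), *Gpr171*, *Naaa*, *Ms4a6c*, *Ms4a4c*, *Alox5ap* and *Plbd1*.

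**Figure D2:**
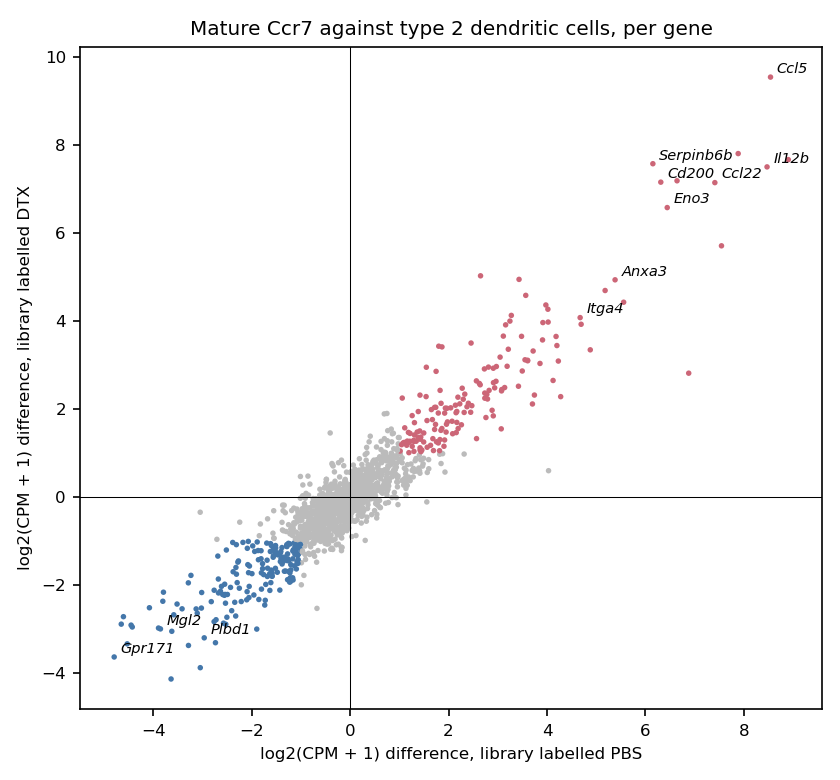
Each point is 1 of 1498 genes, placed by its log2(CPM + 1) difference between members and type 2 dendritic cells in the library labelled PBS (horizontal) and in that labelled DTX (vertical). Red marks the 158 genes at least 2-fold higher in both libraries and blue the 167 lower, with *Ccl5* at the top right and *Gpr171* at the bottom left.

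Antigen presentation split by gene. The class II genes *H2-Aa* and *Cd74* were slightly lower in the members, by 0.37 and 0.51 and by 0.61 and 0.62 log2 units. *H2-Ab1*, the class II beta chain gene, stood at the edge of the threshold, at -1.07 and -0.96 with all members and at -1.16 and -1.01 without its top members. Within the exchange factors that load class II, *H2-DMb2* was higher (328 and 278 CPM against 72.7 and 99.6), whereas *H2-DMa* was lower by 1.38 and 1.51 units and *H2-DMb1* by 3.11 and 2.63. Of 9 class I pathway genes the immunoproteasome genes *Psmb8* and *Psmb9* and the proteasome activators *Psme1* and *Psme2* were higher, *Psme2* by 2.63 and 2.59 units and *Psme1* by 1.82 and 1.06, or 1.77 and 0.98 without its top members. Because near-identical class I and class II paralogs can share reads, values of single *H2* genes are uncertain.

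Among 6 costimulatory genes *Cd40* (1.55 and 2.96 log2 units) and *Icam1* (1.80 and 3.43) were higher. Without their top members *Cd40* was at 1.46 and 2.26 and *Icam1* at 1.69 and 2.85. *Cd86* (1.09 and 0.41) and *Cd83* (0.08 and -0.16) were not past the threshold in both libraries. Of 6 inhibitory genes 4 were higher: *Cd274*, encoding PD-L1 (471 and 578 CPM against 113 and 141), *Cd200*, *Il4i1* and *Socs2*, a suppressor of cytokine signalling. Of 14 NF-kB pathway genes only *Relb* (384 and 408 CPM against 130 and 121) and *Birc2* passed. *Nfkbia*, the inhibitor IkB-alpha, was 0.55 and 0.52 units higher. The survival genes *Bcl2a1b* and *Bcl2a1d*, paralogs that can share reads, were higher too. Of 11 glycolysis and hypoxia genes *Ldha* and *Eno1* were lower in both libraries. *Pgam1*, a glycolytic mutase gene, was at -0.96 and -1.25 log2 units, or -1.09 and -1.36 without its top members, and *Hif1a* was at -0.24 and -1.06.

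Of 4 type 1 genes measured, *Irf8*, *Batf3* and *Cd24a* were higher than in type 2 cells and *Naaa* was lower, at 35.4 and 14.5 CPM against 300 and 226. The whole type 1 list summed to 985 and 960 CPM in the members, 461 and 463 in type 2 cells and 2907 and 2736 in type 1 cells. *Irf8*, a transcription factor that type 1 dendritic cells depend on, had 551 and 597 CPM in the members, 668 and 655 in type 1 cells and 17.7 and 57.6 in type 2 cells. *Batf3*, its partner, had 181 and 154 CPM against 91.5 and 105 in type 1 cells and 8.87 and 13.2 in type 2 cells. *Clec9a* counted 5 and 0 UMIs in the members and *Cd209a* 15 and 27. Of 5 type 2 genes measured, *Klf4*, *Mgl2*, *Clec10a* and *Cd7* were lower in both libraries.

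The members were not uniform. *Il12b* and *Ccl17* were each held by a minority, *Il12b* by 22 of 70 and 19 of 78 members and *Ccl17* by 25 and 26. In the library labelled PBS 15 members held only *Il12b*, 18 only *Ccl17* and 7 both. In the library labelled DTX these were 15, 22 and 4. After thinning to 2000 UMIs, 2 members in each library held both. The 2 groups had similar depth, with medians of 9380 and 8343.5 UMIs in the library labelled PBS and 10123 and 9898 in that labelled DTX.

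The cells with *Il12b* and no *Ccl17* differed from those with *Ccl17* and no *Il12b* the same way in both libraries for several genes. These were picked out after their values were seen and carry no test. They came from a wider set that also held other lineage genes, such as *Batf3*, *Sirpa* and *Zeb2*. How many of that set ran the same way is not given here. *Irf8* had 698 CPM (569 to 849) in the former and 406 (313 to 519) in the latter in the library labelled PBS, and 1283 (1114 to 1471) and 631 (533 to 742) in the library labelled DTX. *Cbfa2t3*, a transcriptional corepressor, had 422 and 216 CPM, then 444 and 173. *Tnfrsf4*, which encodes the receptor OX40, had 235 and 44.4 CPM, then 407 and 56.2. The order was the opposite for *Il1b*, the gene of interleukin-1 beta, with 719 and 3154 CPM, then 1264 and 2805, and for *Fabp5* with 2524 and 4792, then 4088 and 9167. The *Irf8*, *Cbfa2t3*, *Tnfrsf4*, *Il1b* and *Fabp5* counting intervals of the paired groups did not overlap in either library, but such intervals leave out the spread between cells. *Cd24a* was also higher with *Il12b*, at 173 and 102 CPM, then 357 and 69.2, but its intervals overlapped in the library labelled PBS. Cells of 1 library are not replicates, and these groups share their 2 libraries.

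**Figure D3:**
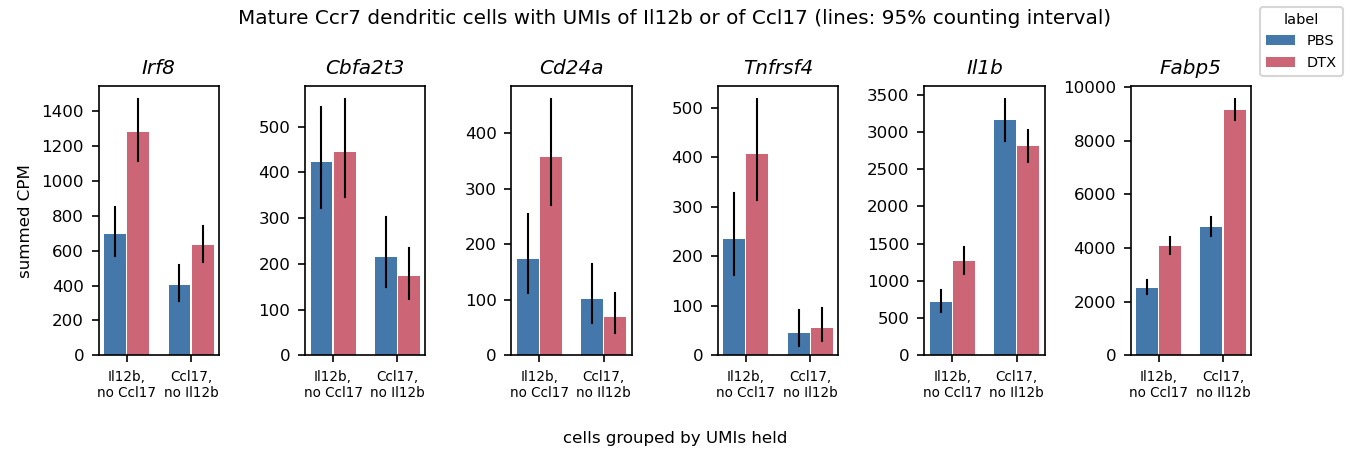
Summed CPM of 6 genes (1 panel each, with its own axis from 0) in members with UMIs of *Il12b* and none of *Ccl17* and in members with the reverse, in the libraries labelled PBS (blue) and DTX (red), with exact 95% counting intervals as lines. *Irf8*, *Cbfa2t3*, *Cd24a* and *Tnfrsf4* are higher with *Il12b*, and *Il1b* and *Fabp5* with *Ccl17*.

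Between the libraries most genes of the members were within 2-fold. Of 1887 genes with at least 100 UMIs in the members, 36 (1.91%) were at least 2-fold higher in the library labelled DTX and 7 (0.371%) at least 2-fold lower, with a median log2 ratio over all genes of 0.06. With 1 library per label these counts have no replicate check. None of 16 NF-kB genes, 9 costimulatory genes, 9 class I genes and 8 class II genes passed 2-fold. Of 8 listed chemokines 4 were past it, all higher in the library labelled DTX, namely *Ccl17*, *Ccl2*, *Ccl6* and *Ccl9*. The chemokine gene *Cxcl1*, which was not on that list, was past it as well, at 1.94, and is described below. Of 15 immediate early and heat shock genes *Hspa1a* and *Hspa1b* were past it. *Relb* had 384 and 408 CPM, a log2 ratio of 0.09 (-0.16 to 0.34). *Cd86* had 648 and 680 CPM, a ratio of 0.07 (-0.12 to 0.26), and *H2-Aa* had 9179 and 8926. The 28 further maturation genes had a median ratio of -0.07, with only *H2-M2* past 2-fold.

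*Fabp5* and *Il4i1* were higher across the members labelled DTX rather than in a few of them. Counts of *Fabp5* ran from 0 over a median of 24.5 to 411 UMIs per member in the library labelled PBS and from 0 over 75.5 to 617 in the library labelled DTX. The groups overlapped over most of their range, but the level was 5286 CPM (5098 to 5479) and 9289 (9091 to 9491), a log2 ratio of 0.81 (0.75 to 0.87), below the 2-fold threshold. *Il4i1* ran from 0 over 3 to 36 and from 0 over 9 to 55 UMIs, and its ratio was 0.75 (0.58 to 0.92). Without the member with the most UMIs of the gene in each library the ratios were 0.91 and 0.81. None of the 7 inhibitory genes measured was past 2-fold. Their ratios were all above 0, with a median of 0.51, as were those of 1114 of all 1887 genes.

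Several chemokine sums, by contrast, turned on single cells. *Ccl17* counted 163 UMIs in the library labelled PBS and 667 in the library labelled DTX, a log2 ratio of 1.36 (1.12 to 1.62). Yet 441 of the 667, or 66.1%, came from 1 member, the deepest of all with 25620 UMIs. The same cell held 727 of 2416 *Ccl22* UMIs, 227 of 565 of *Cd40* and 207 of 259 of *Cxcl1*, and it had no UMI of *C1qa*, *Cd3e* or *Cd207*. Without this cell *Ccl17* had a ratio of -0.15 and *Cxcl1* of -0.31. The median *Ccl17* count was 0 in both libraries, and thinned to 2000 UMIs 23.9% and 19.2% of members held one. *Ccl22* was at 0.44 (0.34 to 0.55) with all cells and at 0.08 without the top cell of each library. *Ccl5* was at -0.52 (-0.63 to -0.41) and at -0.28 without its top cells. *Ccl2* (1.10), *Ccl6* (1.11) and *Ccl9* (1.85) stayed past 2-fold without theirs, whereas *Ccl6* stood at -0.11 with doublets removed. That setting took members from 1 library only: 13 labelled DTX, by a cut on the doublet score, and 0 labelled PBS, by doublet calls.

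**Figure D4:**
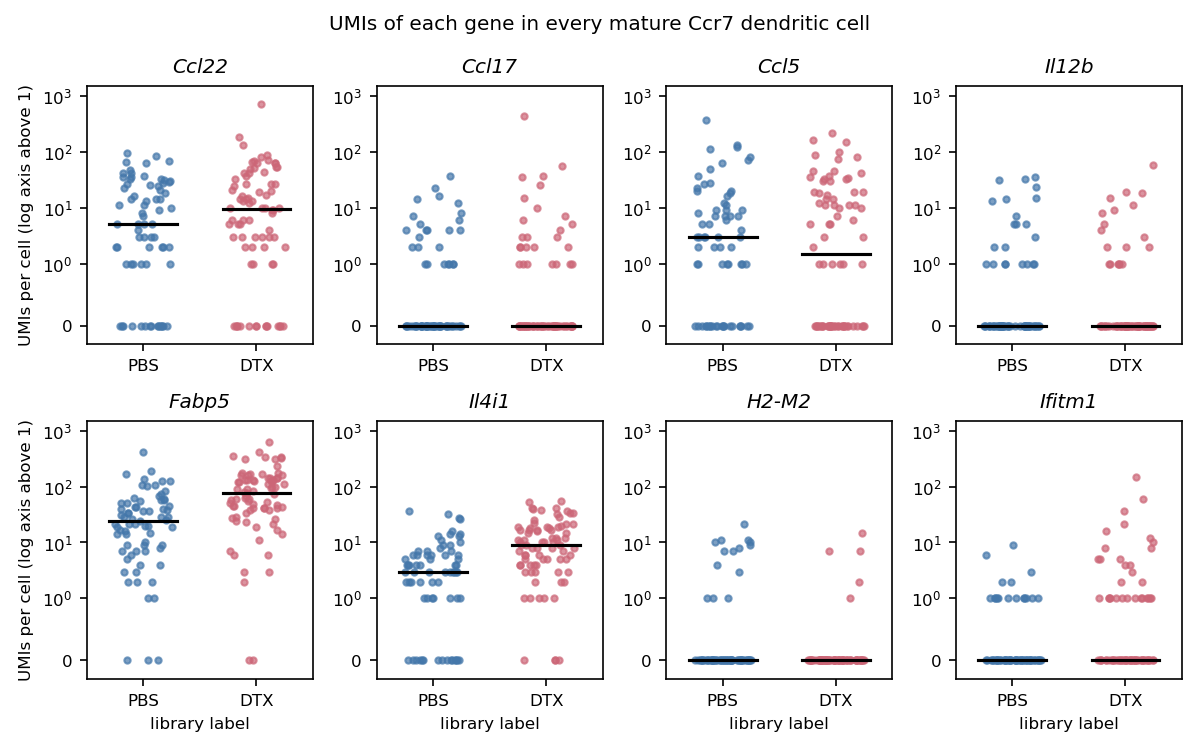
UMIs per cell of 8 genes (1 panel each, logarithmic above 1) in each of the 70 members labelled PBS and 78 labelled DTX, with medians as black bars. The median of *Fabp5* is 24.5 and 75.5 and that of *Il4i1* 3 and 9, while the *Ccl17* sum labelled DTX rests on 1 cell at 441.

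The 10 genes furthest above in the library labelled DTX were *Hspa1b*, *Ifitm1*, *Ccl9*, *Pgf*, *Cxcl1*, *Hspa1a*, *Lyz2*, *Ccl2*, *Pltp* and *Ctsl*. With doublets removed, which left out 13 members labelled DTX and 0 labelled PBS, 16 genes, not 36, were higher and *Ccl2* turned to -0.71. Among the 36 and 6 members with up to 2000 genes *Pgf* turned to -4.50 and *Ccl9* to -0.88. The heat shock gene *Hspa1b* counted 35 UMIs in 14 members labelled PBS and 404 in 22 labelled DTX, where single members held 134, 79 and 44. Its median was 0 in both libraries. The *Hspa1b* ratio of 2.84 was 2.75 without the top cells, 1.49 with doublets removed and 3.66 under a rule of 3 or more *Ccr7* and 2 or more *Fscn1* UMIs. *Hspa1a* had a ratio of 1.67, which was 0.16 with doublets removed and 3.32 under that rule. *Ifitm1*, an interferon-induced membrane protein gene, counted 34 UMIs in 17 members and 365 in 31, a ratio of 2.74 (2.25 to 3.31). Single members labelled DTX held 150, 60 and 36 of the 365, and the median was 0 in both libraries. Thinned to 2000 UMIs, 11.9% (5.30 to 22.2) and 20.5% (12.2 to 31.2) of members held one, so these intervals overlapped. *Ifitm1* was not particular to the members: its level in type 2 dendritic cells was 497 and 2334 CPM, in type 1 cells 433 and 1995, and over all kept cells 80.4 and 747. The chemokine gene *Ccl9* had 53.1 and 306 CPM in the members, 255 and 453 in type 2 cells, 52.0 and 283 in type 1 cells and 137 and 1074 over all kept cells. The macrophage gene *Lyz2* had 193 and 593 CPM in the members and 1077 and 4559 over all kept cells, but 2691 and 2642 in type 2 cells, 2469 and 2533 in type 1 cells and 8165 and 7542 in macrophages.

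Macrophage marker RNA also differed between the members of the libraries. All 13 macrophage markers had UMIs in the members of both libraries and summed to 933 and 1795 CPM, led by *Apoe* (381 CPM) in the library labelled PBS and *Lyz2* (593 CPM) in that labelled DTX. Members held a median of 2 and 3 such UMIs, with single cells at 152 and 371, and 4 and 6 members had 3 or more UMIs of *C1qa*, *C1qb* and *C1qc*. Without the latter, 66 and 72 members remained and 18 genes were 2-fold higher and 11 lower. *Lyz2* then had a ratio of 0.83, *Ctsl*, a lysosomal protease gene, of 0.24, *Ccl2* of 0.51 and *Ccl6* of 0.80, all under 2-fold, while *Ifitm1* (2.77), *Ccl9* (2.86) and *Pltp* (1.65) stayed past 2-fold. Whether RNA of other cells made up any part of these differences was not tested.

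The 10 genes furthest below in the library labelled DTX were *H2-M2*, *Lgals7*, *S100a8*, *Lima1*, *Mthfd2*, *S100a9*, *Nabp1*, *Eva1b*, *Il12b* and *Mfge8*. *H2-M2* (chr17:37480851-37483552, minus strand), a nonclassical class I gene, counted 104 UMIs in 14 members labelled PBS and 32 in 5 labelled DTX, or 184 and 35.7 CPM, a ratio of -2.34 (-2.99 to -1.78). Without the top cells it was -2.90. *Mfge8*, which encodes a bridging protein for dying cells, had 535 and 273 CPM. Both were high in Langerhans cells, at 628 and 1101 CPM for *H2-M2* and 5094 and 5337 for *Mfge8*, and at or near 0 in type 1 cells. *Il12b* had 354 and 181 CPM, a ratio of -0.97 (-1.28 to -0.66), in 22 and 19 members, and -1.33 without the top cells. *Mthfd2*, a mitochondrial folate enzyme gene, counted 123 UMIs in 42 members and 72 in 31, a ratio of -1.43.

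The neutrophil markers *S100a8* and *S100a9* rested on 1 cell in each library. For *S100a9* that cell held 179 of 184 UMIs in the library labelled PBS and 117 of 127 in that labelled DTX, and without these cells the ratio turned from -1.20 to 0.28. For *S100a8* the top cells held 107 of 120 and 52 of 57 UMIs, and without them the gene stayed past 2-fold lower. The keratinocyte gene *Lgals7* had 142 and 37.9 CPM in the members and 3878 and 856 over all kept cells. The 10 keratinocyte markers summed to 409 and 162 CPM in the members and the 10 fibroblast markers, led by *Dcn* and *Col3a1* and with *Pdgfra* at 0, to 592 and 136. Their part in the differences was not tested. Of 12 T and NK markers *Il7r* made up most, with 269 and 402 CPM. B cell, mast cell and endothelial markers each summed to at most 35.7 CPM in either library.

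**Figure D5:**
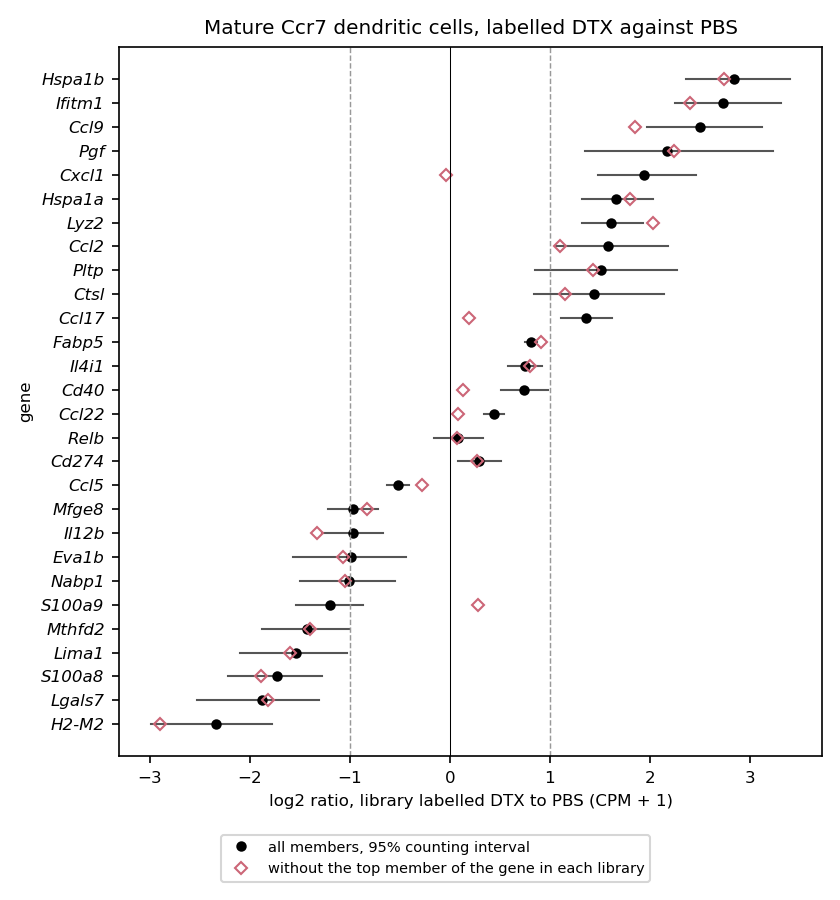
Log2 ratio of the library labelled DTX to that labelled PBS in the members for 28 genes (black, with exact 95% counting intervals) and without the member holding the most UMIs of that gene in each library (red diamonds); dashed lines mark 2-fold. *Ccl17*, *Cxcl1* and *S100a9* shift most, while *Fabp5*, *Il4i1*, *Hspa1b*, *Ifitm1* and *H2-M2* stay on their side of 0.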

How the data were processed

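The deposited values are the authors' raw UMI counts for each gene in each barcode, from Cell Ranger 6.1.1 (file header and the submitters' processing notes) against mm10. The deposited tables held 12058 barcodes with 105511870 UMIs labelled PBS and 11031 with 81858751 labelled DTX. The study's text gives these barcode counts for the opposite groups. Each class's counts were added up, scaled to CPM, and 1 CPM was added before log2 ratios. Langerhans cells held 3 or more *Cd207* UMIs and *Epcam*, type 1 dendritic cells 2 or more of *Xcr1* and *Clec9a* without *Ccr7*, macrophages *Fcgr1* and *Adgre1* without *Ccr7*, and T or NK cells 2 or more of *Cd3e*, *Cd3g* and *Nkg7*. Genes with at least 100 UMIs were compared, 2-fold being the threshold. Intervals were exact Poisson (levels), Clopper-Pearson (shares) and conditional binomial (ratios). Detection shares were computed on members thinned to 2000 UMIs (67 and 78; seed 1). Named genes were those of fixed lists, the 10 furthest above and below between libraries, and the 15 highest and 10 lowest against type 2 dendritic cells. The members and lists were chosen with earlier results of these data known. Other genes were named after their values were seen. A few genes are not reported here. Doublets were not removed in the main analysis. Scripts ran in Python 3.11.15 (numpy 2.4.6, scipy 1.17.1, pandas 2.3.3, scanpy 1.11.5, anndata 0.12.19, matplotlib 3.10.9) and were tested on simulated data.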

Additional observations from a re-analysis of the deposited data

How the results depend on the processing

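No paired analysis was possible because each label had 1 library. Depth limits the rarer genes most. An upper limit of 2000 genes per cell left 36 and 6 members. The share of kept cells was then 1.43% (labelled PBS) and 0.227% (labelled DTX), that of *Ptprc* cells labelled DTX was 0.159%, that of dendritic cells labelled PBS was 52.9%, 6 genes were higher and 25 lower between libraries, and 3 were higher and 7 lower against type 2 cells. The ratios of *Ccl17* (-2.96), *Ccl9* (-0.88), *Pgf* (-4.50), *S100a8* (8.04) and *S100a9* (8.30) changed sign. After thinning to 2000 UMIs the rule gave 0.652% and 0.844% of kept cells, 0.585% of *Ptprc* cells labelled DTX, and 50% and 56.4% of dendritic cells.

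Between libraries, the 36 higher and 7 lower genes became 113 and 23 at 50 UMIs, 18 and 1 at 200 UMIs, and 18 and 11 without members holding C1q UMIs. The lower count became 12 at a limit of 10% mitochondrial UMIs and 12 when scaled without mitochondrial and ribosomal protein genes. With doublets removed (382 cells called by Scrublet labelled PBS, none of them a member, and, labelled DTX, where it called 0, the 670 cells at or above the score bounding the top 8%, ties included, 13 of them members) 16 were higher, and *Ccl2* (-0.71) and *Ccl6* (-0.11) changed sign. As means of each cell's CPM, *S100a8* (0.73) and *S100a9* (1.30) did. Against type 2 cells, 286 were higher and 290 lower at 50 UMIs.

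Settings added after the data were seen were the top cell of each gene left out, with 11 lower and *Cxcl1* (-0.037) and *S100a9* (0.28) changing sign, and the member with the most *Ccl17* left out, with *Ccl17* (-0.15) and *Cxcl1* (-0.31) changing sign. With the top cells out, 31 of the 36 and 6 of the 7 genes stayed past 2-fold, and 147 were higher and 195 lower against type 2 cells. The causes of these shifts were not tested. The counts of genes were within 1.5 times the reported ones under the other settings tried.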

Other observations

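A few genes in the members had UMIs in 1 library and few or none in the other. *Gm47283* counted 48 UMIs (in 30 members) in the library labelled PBS and 0 in that labelled DTX, and *Mid1* counted 30 in 22 members and 7 in 7. *Slc15a2*, a peptide transporter gene, counted 0 and 22 (in 13 members). All were under the 100 UMIs required for the comparison. They came from a fixed list of genes named library-wide, drawn up with earlier results of these data known. Their levels in other cells are not given here, so the counts do not mark a trait of the members. *Gzmb*, which encodes the cytotoxic protease granzyme B, counted 0 and 43, of which 41 were in 1 cell.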
